A study of Mus musculus with 6 samples.

Results

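The cytosolic ribosome is built from ribosomal RNA and about one copy of each of a large set of proteins. The proteins of the large 60S subunit carry Rpl names and those of the small 40S subunit Rps names. The small subunit reads the mRNA, the large subunit joins the amino acids, and a stalk of P proteins on the large subunit recruits the elongation factors. Many ribosomal protein mRNAs begin with a run of C and T called a 5 prime TOP motif, through which mTORC1 signalling adjusts their translation. Macrophages adjust their protein synthesis after LPS, a bacterial cell wall component sensed by TLR4. Ribosomal protein genes have also left many processed copies in the mouse genome, so that a read from one of them may match several places.

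The genes described here are the rows of the deposited tables named Rpl or Rps with a digit, together with Rplp0, Rplp1, Rplp2 and Rpsa. Rps6 kinase genes and pseudogene rows were left out. This gave 89 genes of the 16266 in the tables, 54 of the large and 35 of the small subunit by name. Of them, 87 passed the filter on low counts and were tested. Rpl3l and Rps23rg1 did not pass it, with at most 9 counts in a library. The set holds paralogs and retrogene rows (Rpl32l, Rpl6l, Rpl37rt, Rps27rt, Rps23rg1), and Rps19bp1, which encodes a binding protein of RPS19 and is no subunit.

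The samples were 3 libraries from Capns1 knockout (KO) and 3 from wild-type (WT) mouse bone marrow-derived macrophages, cells grown from marrow in DMEM with fetal bovine serum. All 6 were taken after 24 h of LPS. Capns1 encodes the small subunit shared by calpains 1 and 2, and the study's title describes its deletion in myeloid cells. The sources used here give neither the Cre driver nor the number of animals or cultures, so a p-value reflects the spread of these libraries alone, part of which may be technical. The genotype entries of the KO samples are numbered differently (CAPNS1-KO, CAPNS2-KO and CAPNS3-KO), while the design text speaks of capns1 for all. Capns1 had 298 to 370 counts in the KO libraries, against 17055 to 21331 in the WT libraries.

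Libraries held 32631163 to 40913819 counts. Of the 8 macrophage markers listed for the check of cell type, all were expressed, with summed levels of 33630 to 38750 CPM (the count scaled to a common library total) in KO and 35310 to 42660 CPM in WT libraries, and 1, Cd14, was called lower in KO (adjusted p under 0.05 in edgeR, here and for the other markers). Of the 12 fibroblast and marrow stroma markers, 11 were tested and 7 were called higher in KO, with summed levels of 487 to 624 CPM in KO and 232 to 290.0 CPM in WT libraries, and no marker of that list was at 0 in all libraries. Of the 10 neutrophil markers, S100a8 and S100a9 were called higher and Mpo, Elane and Csf3r lower, with summed levels of 1258 to 1614 CPM in KO and 1408 to 1747 CPM in WT libraries. Of the 7 dendritic cell markers 2 were tested and Itgax was called higher, with summed levels of 25.2 to 32.5 CPM in KO and 12.02 to 17.3 CPM in WT libraries. The part of these marker differences in the results was not tested. KO replicate 2 and WT replicate 3 stood apart from the others of their groups on the second principal component (15.9% of the variance), at 25.5 against -12.6 and -10.4 in KO and at -23.2 against 8.21 and 12.4 in WT. Results that rest on these libraries are therefore given with and without both of them.

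Ribosomal protein transcripts showed a small common shift towards higher levels in KO macrophages, which nearly vanished without the libraries that stood apart, and 8 of them were much higher with or without those libraries. A gene is termed called when its Benjamini-Hochberg adjusted p over all 12219 tested genes is under 0.05 in edgeR's quasi-likelihood test. Of the 87 tested genes, 15 were called higher in KO (17.2%), against 8.44% of all tested genes. Without WT replicate 1 the count was 8 (9.20%, against 5.63% of all tested genes), and without KO replicate 3 it was 9 (10.3%, against 5.99%), with 0 called lower in either, against 3.47% and 3.23% of all tested genes. In the fit of all libraries 0 were called lower in KO, against 6.21% of all tested genes. At an unadjusted p under 0.05, 30 were higher and 1 was lower in KO, against 14.7% and 13.5% of all tested genes, while DESeq2 called 1 lower and limma-voom 0. The median log2 fold change of KO over WT was 0.21 for the 87 genes and -0.011 for all tested genes. A log2 fold change above 0 was found for 82 of the 87 (94.3%) and for 48.3% of all tested genes. Without KO replicate 2 and WT replicate 3 the median of the 87 was 0.024, with 13 called higher (14.9%) and 3 lower (3.45%; Rps9, Rps27a and Rpl5), against 13.7% and 12.3% of all tested genes, so the share called higher was near that of all genes. In 29 of the 87 every KO library was above every WT library, against 18.2% of all tested genes, and in 1 every KO library was below, against 15.5%. In bulk RNA, fewer cells of a type and less RNA per cell cannot be told apart.

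**Figure D1:**
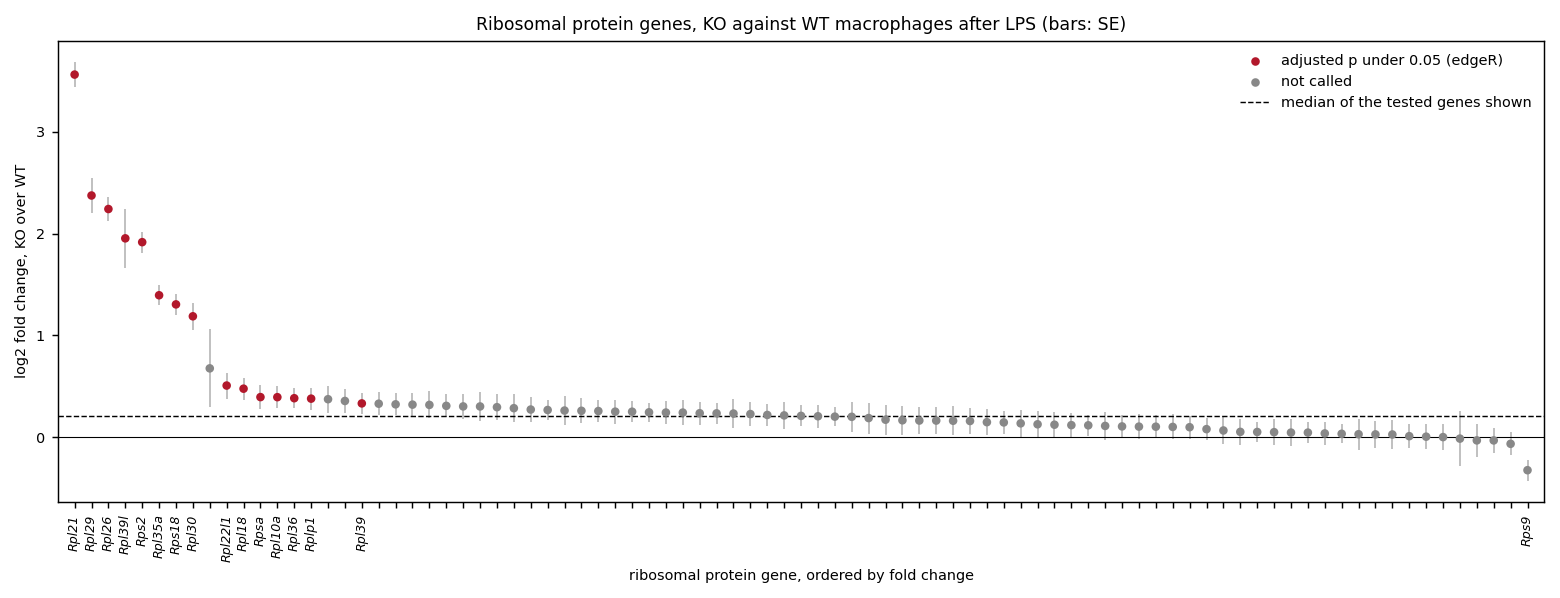
Log2 fold change of KO over WT (y axis) for the 87 tested ribosomal protein genes, ordered along the x axis; bars are standard errors, red points have an adjusted p under 0.05, the dashed line is the median of these genes, and names are given for called genes and those more than 0.5 from the median. From Rpl21 at 3.56 to Rpl30 at 1.19, 8 called genes stand above the rest, which lie between 0.68 and -0.32.

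The genes fell into a main body and a few that stood apart. Within 0.5 log2 units of the common median of 0.21 lay 78 genes, from -0.065 to 0.68, with a median of their own of 0.19. Beyond that distance were 9 genes. On the high side were Rpl21, Rpl29, Rpl26, Rpl39l, Rps2, Rpl35a, Rps18 and Rpl30, and on the low side was Rps9. Called and more than 2-fold higher in KO were 8 of the 87 tested genes (9.20%), against 4.62% of all tested genes. The nearest gene below them was Rpl32l at 0.68, which was not called (adjusted p = 0.281 in edgeR).

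The start of the coding sequence is shown for 5 genes because reads from these stretches can match copies to a different degree. Each line gives the first 90 coding bases from GENCODE M21 on GRCm38 (the assembly called mm10), 5′ to 3′ on the gene's strand, joined across introns. Rpl21 is on chromosome 5, Rpl26 on 11, Rps2 on 17, Rpl39l on 16 and Rps9 on 7. Capitals mark bases that lie in a 32-base word also found in a transcript of a gene elsewhere in the genome.
Rpl21: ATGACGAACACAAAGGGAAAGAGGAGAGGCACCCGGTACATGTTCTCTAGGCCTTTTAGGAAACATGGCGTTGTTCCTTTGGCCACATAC
Rpl26: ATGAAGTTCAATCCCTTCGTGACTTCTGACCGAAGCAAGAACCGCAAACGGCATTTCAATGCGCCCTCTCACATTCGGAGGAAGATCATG
Rps2: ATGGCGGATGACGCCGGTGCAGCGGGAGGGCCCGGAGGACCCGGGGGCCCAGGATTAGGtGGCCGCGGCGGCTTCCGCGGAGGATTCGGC
Rpl39l: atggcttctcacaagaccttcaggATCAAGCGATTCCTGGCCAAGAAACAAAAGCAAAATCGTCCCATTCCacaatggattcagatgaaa
Rps9: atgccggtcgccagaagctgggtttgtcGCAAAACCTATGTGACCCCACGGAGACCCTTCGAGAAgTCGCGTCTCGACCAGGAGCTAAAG
In Rpl21 and Rpl26 all 90 bases were shared, and in Rps2 89 of 90. Rpl39l shared 47 and Rps9 61 of its 90.

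Rpl21, a large subunit protein, showed the highest fold change of the 87. It lies on chromosome 5 at 146832890 to 146837032 (GRCm38.p6), and it had 46.0, 53.5 and 46.2 FPKM in the KO libraries, against 3.76, 4.05 and 4.32 FPKM in the WT libraries. Rpl21 had 3008, 3696 and 2797 counts in the KO libraries and 242, 298 and 328 counts in the WT libraries. Every KO library was above every WT library by a wide margin, and the log2 fold change was 3.56 ± 0.13 SE (adjusted p = 3.85e-08 in edgeR). Rpl21 ranked 80th of the 89 genes by mean FPKM in KO and 85th in WT, so it was among the lowest in either group. The two-sided exact permutation test of a single gene cannot go below p = 0.1 with 3 libraries against 3.

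Rpl29 and Rpl26 followed in size. Rpl29, a basic protein of the large subunit surface, had 121, 157 and 136 FPKM in the KO libraries, against 29.8, 29.7 and 19.4 FPKM in the WT libraries. WT replicate 3 was the lowest of the WT libraries, and the groups did not overlap (log2 fold change 2.38 ± 0.17 SE, adjusted p = 6.10e-06 in edgeR). Rpl26, a large subunit protein near the exit of the peptide tunnel that in human cells also binds p53 mRNA, had 511, 604 and 509.8 FPKM in the KO libraries, against 114, 122 and 103 FPKM in the WT libraries. All KO libraries held over 4 times the FPKM of any WT library (log2 fold change 2.24 ± 0.12 SE, adjusted p = 9.09e-07 in edgeR). Rpl26 lies on chromosome 11 at 68901566 to 68904534 and Rpl29 on chromosome 9 at 106428889 to 106431568 (GRCm38.p6).

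Of the small subunit, Rps2 and Rps18 stood apart. Rps2, which lines the channel where mRNA enters, had 300.3, 344 and 323 FPKM in the KO libraries, against 81.6, 87.0 and 84.0 FPKM in the WT libraries. Its log2 fold change was 1.92 ± 0.10 SE (adjusted p = 9.09e-07 in edgeR), and the libraries of each group lay close together. Rps18, a protein of the head of the small subunit, had 395, 443 and 444 FPKM in the KO libraries, against 157, 174 and 179 FPKM in the WT libraries. Here too the groups were well separated (log2 fold change 1.31 ± 0.10 SE, adjusted p = 1.43e-05 in edgeR). Both genes are on chromosome 17, Rps2 at 24718121 to 24721927 and Rps18 at 33951998 to 33955665 (GRCm38.p6).

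Rpl35a and Rpl30 completed the large subunit genes of this size. Rpl35a, mutated in some human families with Diamond-Blackfan anaemia, had 425, 478 and 464 FPKM in the KO libraries, against 171, 177 and 165 FPKM in the WT libraries (log2 fold change 1.40 ± 0.10 SE, adjusted p = 5.63e-06 in edgeR). Rpl30, which takes part in a contact between the subunits, had 286, 357 and 266 FPKM in the KO libraries, against 131, 141 and 123 FPKM in the WT libraries (log2 fold change 1.19 ± 0.13 SE, adjusted p = 1.30e-04 in edgeR). In neither gene did any WT library reach the lowest KO library. Rpl39l, a paralog of Rpl39 known for its expression in testis, was far less abundant, at 5.25, 7.44 and 6.31 FPKM in the KO libraries, against 2.04, 1.91 and 0.909 FPKM in the WT libraries. WT replicate 3, with 32 counts, was the lowest, and the log2 fold change was 1.95 ± 0.29 SE (adjusted p = 0.0011 in edgeR).

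In KO libraries Rpl26, Rps2, Rpl35a, Rps18 and Rpl30 ranked 35th to 64th by mean FPKM among the 89 genes, against 66th to 74th in WT libraries. The median of the 89 genes was 393 to 462 FPKM across KO libraries and 296 to 403 FPKM across WT libraries. These 5 genes thus ranked nearer the middle of the set in KO than in WT. Even so, Rps2 and Rpl30, with KO means of 323 and 303 FPKM, were below that median in KO. The others of the 8 were low in both groups. Rpl29, Rpl21 and Rpl39l ranked 74th, 80th and 86th in KO and 83rd, 85th and 86th in WT. Together the 8 genes took 0.144, 0.169 and 0.152% of the counts of the KO libraries, against 0.0453, 0.0482 and 0.0442% in the WT libraries, with no overlap.

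**Figure D2:**
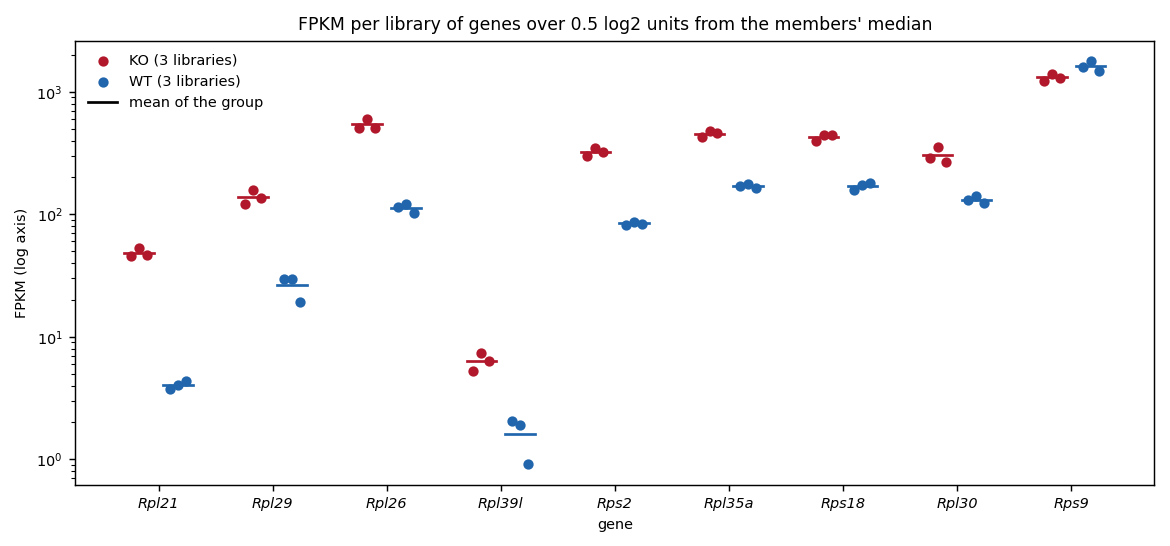
FPKM on a log axis (y) in each KO and WT library (points; KO left, lines are group means) for the 9 genes more than 0.5 log2 units from the median of the ribosomal protein genes. In Rpl21 the KO libraries are at 46.0 to 53.5 and the WT libraries at 3.76 to 4.32, while Rps9 is the 1 gene with lower values in KO.

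Rps9 was lower in KO without being called. It binds near the mRNA entry channel of the small subunit and was among the most abundant of these transcripts, with 1230.0, 1400.4 and 1292 FPKM in the KO libraries, against 1579.5, 1785 and 1478 FPKM in the WT libraries. The highest KO library was below the lowest WT library. The log2 fold change was -0.32 ± 0.10 SE (adjusted p = 0.0592 in edgeR). As a share of all ribosomal protein counts, Rps9 took 2.60, 2.50 and 2.49% in the KO libraries, against 3.65, 3.65 and 3.80% in the WT libraries. DESeq2 called it lower (adjusted p = 0.0367), as did edgeR without KO replicate 2 and WT replicate 3 (log2 fold change -0.46, adjusted p = 0.00262).

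To set the common shift aside, the libraries were also scaled to the summed counts of the 72 ribosomal protein genes that were not called. On that scale 8 genes were called higher, against 4.04% of all tested genes, and they were the 8 named above. Rps9 was called lower, against 6.03% of all tested genes (log2 fold change -0.48, adjusted p = 0.0218 in edgeR). Over all tested genes this scale gave 494 higher and 737 lower, against 1031 higher and 759 lower in the unscaled comparison. The smallest change among the 8 was that of Rpl30 (1.02, adjusted p = 0.002 in edgeR). The 7 genes of smaller fold change that were called before were not called on this scale. The 72 reference genes were picked as not called in these same data. This step therefore cannot tell whether the 7 follow the common shift alone.

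Those 7 genes were Rpl22l1, Rpl18, Rpsa, Rpl10a, Rpl36, Rplp1 and Rpl39. Rpl22l1, a paralog of Rpl22, had 84.2, 93.9 and 84.1 FPKM in the KO libraries, against 59.3, 70.8 and 51.8 FPKM in the WT libraries (log2 fold change 0.51 ± 0.13 SE, adjusted p = 0.021 in edgeR). Rpl18, a large subunit protein, had 338, 389.8 and 419 FPKM in the KO libraries, against 256, 297 and 258 FPKM in the WT libraries (log2 fold change 0.48 ± 0.11 SE, adjusted p = 0.0134 in edgeR). Rpsa, a small subunit protein also known as the laminin receptor precursor, had 592, 699 and 657 FPKM in the KO libraries, against 482, 557 and 423 FPKM in the WT libraries (log2 fold change 0.39 ± 0.12 SE, adjusted p = 0.044 in edgeR). In each of the 3 the lowest KO library was above the highest WT library, but by far less than in Rpl21. Rpl10a, a protein of the L1 stalk through which spent tRNA leaves, had 375, 419.6 and 457 FPKM in KO, against 303, 345 and 291 FPKM in WT. Rpl36, another large subunit protein, had 407, 457 and 453 FPKM in KO, against 322, 346 and 326 FPKM in WT. Rpl39, a small protein lining the exit tunnel, had 654, 711 and 752 FPKM in KO, against 526, 602 and 528 FPKM in WT. The log2 fold changes of the last 3 were 0.39, 0.38 and 0.33 (adjusted p = 0.0304, 0.0208 and 0.0475 in edgeR), and their groups did not overlap.

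The stalk proteins were slightly above the common median. Rplp1 had 2250.5, 2619 and 2595 FPKM in the KO libraries, against 1882, 2072 and 1704 FPKM in the WT libraries, and it was called higher (log2 fold change 0.38 ± 0.11 SE, adjusted p = 0.0346 in edgeR). Its partner Rplp2 had 1222, 1236 and 1172 FPKM in the KO libraries, against 957, 963 and 1050.0 FPKM in the WT libraries. Although the groups did not overlap, Rplp2 was not called (0.27 ± 0.094 SE, adjusted p = 0.0807 in edgeR). Rplp0, the base of the stalk and a common reference transcript in quantitative PCR, had 529, 629.8 and 593 FPKM in the KO libraries, against 472, 530.2 and 443 FPKM in the WT libraries. KO replicate 1 was below WT replicate 2, so the groups overlapped (0.26 ± 0.11 SE, adjusted p = 0.144 in edgeR).

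Most of the most abundant transcripts were not called. Rpl41, the smallest of the ribosomal proteins, had the highest mean level of the set, with 2198, 2482 and 2880.5 FPKM in the KO libraries, against 1868, 2187 and 1958 FPKM in the WT libraries (log2 fold change 0.31 ± 0.11 SE, adjusted p = 0.0951 in edgeR). Rps29, a small subunit protein, had the highest mean of the small subunit genes in either group, with 1508, 1856 and 1637 FPKM in the KO libraries, against 1666, 1799.5 and 1435 FPKM in the WT libraries (log2 fold change 0.01). KO and WT values were interleaved in Rps29, whereas in Rpl41 they narrowly did not overlap. The other abundant genes that were not called had log2 fold changes of 0.22 for Rpl32, 0.037 for Rpl10, 0.16 for Rpl35, 0.32 for Rps16, 0.25 for Rps15 and 0.24 for Rps14. Rpl12, at the base of the stalk, had a log2 fold change of 0.36 (adjusted p = 0.0742 in edgeR), without overlap between the groups.

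Rpl5, Rpl11, Rps6, Rpl13a, Rps3 and Rps19, whose proteins have known roles outside the ribosome or in disease, were not called. Rpl5 and Rpl11, which with 5S rRNA bind Mdm2 and so stabilise p53, had log2 fold changes of 0.029 and 0.10. Rpl5 had 144, 182 and 138 FPKM in the KO libraries, against 155, 175 and 119.5 FPKM in the WT libraries, with the groups overlapping fully. Rps6, the substrate of S6 kinase, had 276, 330.3 and 286 FPKM in the KO libraries, against 273, 309.7 and 225 FPKM in the WT libraries (log2 fold change 0.13). Rpl13a, which in human monocytes leaves the ribosome after interferon-gamma to silence inflammatory mRNAs, had 697, 798 and 822 FPKM in the KO libraries, against 577, 697 and 555 FPKM in the WT libraries. KO replicate 1 was just under WT replicate 2, and Rpl13a was not called (0.32 ± 0.11 SE, adjusted p = 0.0821 in edgeR). For Rps3, at the mRNA entry, the log2 fold change was 0.33 (adjusted p = 0.0694 in edgeR), and for Rps19, mutated in Diamond-Blackfan anaemia in humans, 0.21 (adjusted p = 0.269 in edgeR).

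Paralogs were set beside the gene each resembles. Rpl39l was at 1.95 and Rpl39 at 0.33 on the log2 scale. Rpl22l1 was called at 0.51 while Rpl22, at 68.3, 91.1 and 72.3 FPKM in KO, against 68.4, 79.0 and 55.8 FPKM in WT, was not (0.17, adjusted p = 0.503 in edgeR). These differences between paralogs were not tested. Rps27l, a target of p53, was at 0.37 beside 0.15 for Rps27, and Rpl36al at 0.29 beside 0.30 for Rpl36a. Rpl7l1, at 39.8, 42.6 and 36.0 FPKM in KO, against 43.0, 43.1 and 36.0 FPKM in WT, had a log2 fold change of -0.065 beside 0.0053 for Rpl7. Neither Rpl7l1 nor Rpl7 was called, and their groups overlapped. Rpl3l, the muscle paralog of Rpl3, had 1, 3 and 9 counts in the KO libraries and 1, 2 and 4 counts in the WT libraries, too few for a test. Rpl10l and Rps4l were not analysed here.

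The median log2 fold change of the large subunit was 0.25 over 53 tested genes, of which 12 were called higher (22.6%), and that of the small subunit was 0.16 over 34 tested genes, of which 3 were called higher (8.82%, near the 8.44% of all tested genes). A log2 fold change above 0 was found for 50 of 53 and for 32 of 34. These values are from the fit of all libraries and rest in part on the libraries that stood apart. Without both of those, only 46 of the tested genes of both subunits together were above 0, with a median of 0.024. Each subunit was not summarised separately without them. The difference between the subunits was not tested.

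Summed over all 89 genes, ribosomal protein counts made up 3.32, 3.94 and 3.66% of the KO libraries, against 3.04, 3.44 and 2.74% of the WT libraries. The mean share was 3.64 ± 0.31% in KO and 3.07 ± 0.35% in WT libraries (SD, n = 3 each), so the group difference of 0.565 percentage points was larger than either SD but WT replicate 2 was above KO replicate 1. Without the 15 called genes the share was 2.80 to 3.33% in KO and 2.41 to 3.05% in WT libraries. The highest KO library was replicate 2 and the lowest WT library replicate 3, the libraries that stood apart. Of the 78 genes of the main body, 69 had their highest KO level in replicate 2 and 68 their lowest WT level in replicate 3. Relative to each gene's mean over the 6 libraries, their median was at -0.046, 0.25 and 0.046 log2 units in the KO libraries, against -0.093, 0.074 and -0.27 in the WT libraries.

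**Figure D3:**
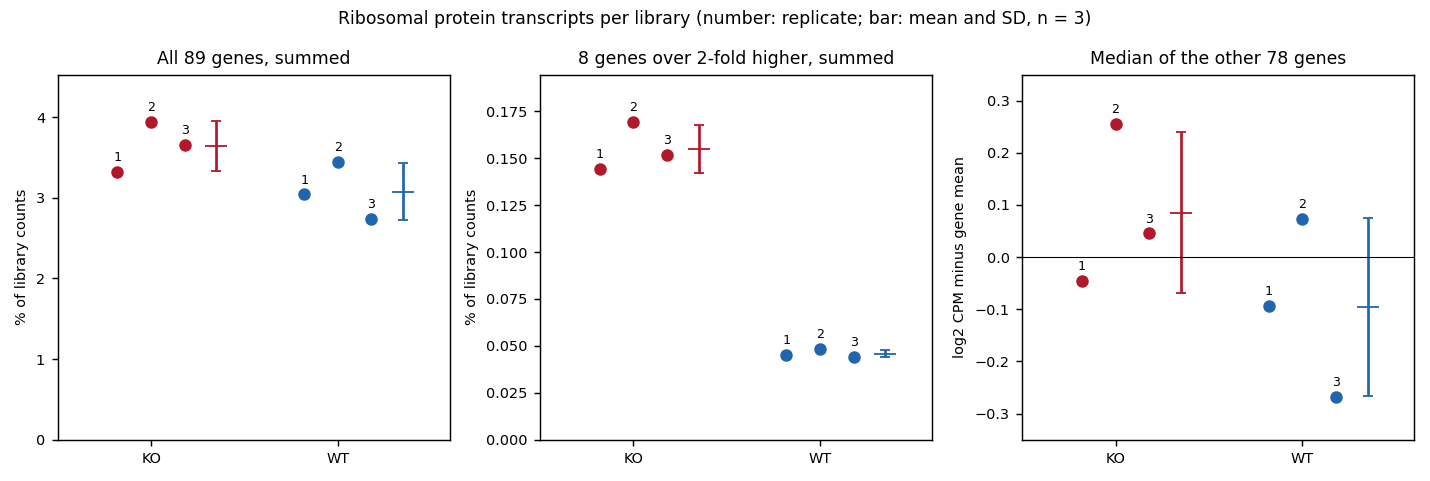
Summed counts of all 89 genes and of the 8 genes more than 2-fold higher as a percentage of each library, and the median of the other 78 tested genes relative to each gene's own mean (log2 CPM), per library (points, numbered by replicate) with the group mean and SD (n = 3); Rps9 is in neither smaller set. The groups overlap in the left panel (KO 3.32 to 3.94%, WT 2.74 to 3.44%) and in the right panel, and are far apart in the middle panel (KO 0.144 to 0.169%, WT 0.0442 to 0.0482%).

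The common shift was thus smaller without these libraries. With both left out, 46 of 87 genes had a log2 fold change above 0. With the 8 high genes also left out, the median was -0.0096 over 79 genes. With KO replicate 2 alone left out the median was 0.13, and with WT replicate 3 alone left out 0.16. Removing a trend with gene length also lowered it, to 0.043, with 53 of 87 genes above 0, beside a median of -0.079 for all tested genes. After that step 994 genes of all tested were called higher and 1352 lower, against 1031 higher and 759 lower before it. Ribosomal protein genes are short, with a median length of 795 bases in the deposited tables, against 3514 bases for all tested genes.

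The 8 genes that stood apart were called higher in each of the 19 other fits, including those without either or both of the libraries that stood apart. Over these fits the log2 fold change was 3.30 to 3.63 for Rpl21, 2.07 to 2.48 for Rpl29, 2.03 to 2.31 for Rpl26 and 1.50 to 2.15 for Rpl39l. It was 1.76 to 1.99 for Rps2, 1.19 to 1.47 for Rpl35a, 1.09 to 1.38 for Rps18 and 0.98 to 1.29 for Rpl30. The 7 genes of smaller fold change were each lost in 2 to 7 of the 19. Among the main body, the values of Rps27a varied most within a group after those of the weakly expressed Rpl32l. Rps27a, which encodes ubiquitin fused to a small subunit protein and is named here after its values were seen, had 274, 516 and 378 FPKM in the KO libraries, against 411, 525 and 232 FPKM in the WT libraries. Its log2 fold change was -0.014 ± 0.27 SE over all libraries and -0.56 (adjusted p = 0.00655 in edgeR) without the libraries that stood apart.

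Sharing of sequence with copies was common in the whole set. Of the 86 genes with a complete coding sequence in GENCODE M21, 68 had over 95% of their coding bases in 32-base words that other genes' transcripts also hold, and 6 had under 50%. Of the genes that stood apart on the high side, all but Rpl39l shared 98.6 to 100%, and Rpl39l shared 30.7%. With words of 100 bases those 7 shared 45.8 to 78.2% and Rpl39l 0%. How reads that match several places were counted is not given in the sources used here, so the values of genes with shared words, which include the 7, are uncertain.

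In the fit of all libraries the median was above 0 at each level of sharing. In the 9 tested genes with no shared 100-base coding word the median log2 fold change was 0.23, and 1 of them, Rpl39l, was called. They also include Rps3, Rps21, Rps27l, Rpl22, Rpl32 and Rpl41. In the 24 genes that shared all of their words it was 0.17, with 1 called, Rpl10a. In the 51 between these extremes it was 0.21, with 13 called. All these calls were higher in KO, and 8.44% of all tested genes were called higher. Without KO replicate 2 and WT replicate 3 the median of the 87 was 0.024. Genes sharing all of their words then ran from -0.56 (Rps27a) to 0.32 (Rpl10a), with a median slightly below 0. Across 84 genes, which share libraries and are no independent replicates, Spearman's rho between the fold change and the share was -0.18, a weak relation. The 7 genes lay in the middle range of sharing. Rps26 (56.9% shared, log2 fold change 0.21) and Rpl14 (60.9%, 0.20), chosen here for their like share, were not called. In the same range Rpl22l1 (59.2%, 0.51), Rpl18 (68.4%, 0.48), Rpl36 (69.9%, 0.38) and Rpsa (72.4%, 0.39) were called higher. The part of sharing in the fold changes was not tested.

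**Figure D4:**
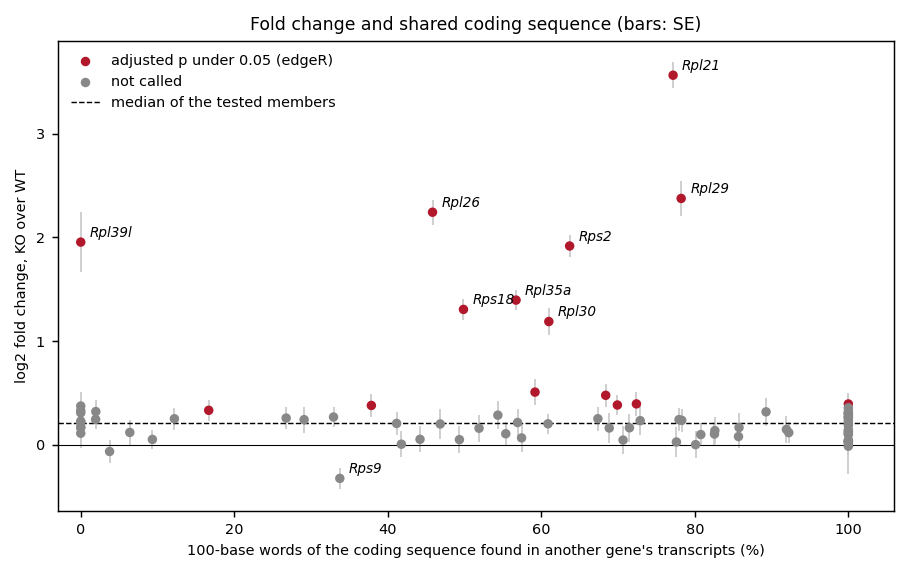
Log2 fold change of KO over WT (y axis, bars are SE) against the percentage of 100-base coding words found in another gene's transcripts (x axis) for 84 ribosomal protein genes; red points have an adjusted p under 0.05. The 7 labelled high genes apart from Rpl39l lie between 45.8 and 78.2%, and genes at 0% and at 100% mostly lie near the dashed median of 0.21.

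Few of the copies were rows of the table, and those that were held few reads. For Rps2, 66 other genes held at least 5% of its words, of which 3 were in the table, all pseudogene rows. Their summed counts were 109, 126 and 102 in the KO libraries, against 79, 95 and 91 in the WT libraries. Rps2 itself had 10568, 12808 and 10530 counts in the KO libraries and 2829, 3443 and 3433 counts in the WT libraries. For Rpl21, 54 genes held that share and 4 pseudogene rows had 5, 13 and 10 counts in KO and 7, 15 and 16 in WT libraries. For Rpl35a, 2 pseudogene rows had 16, 29 and 22 counts in KO and 11, 31 and 24 in WT libraries. Among these rows, Gm10420, a copy of Rps2, had a log2 fold change of 0.38 (adjusted p = 0.33 in edgeR) and Gm10029, a copy of Rpl35a, 0.071 (adjusted p = 0.949 in edgeR). Gm6139, another copy of Rps2, was at -0.10 (adjusted p = 0.922 in edgeR). Gm45855, which holds 41.7% of the words of Rps2, had 12, 15 and 22 counts in the KO libraries and 2, 8 and 6 counts in the WT libraries. Its log2 fold change of 1.72 was near the 1.92 of Rps2, and it was not called (adjusted p = 0.0745 in edgeR). For Rpl26, Rps18 and Rps9 no such row was in the table.

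Genes next to the 9 that stood apart were also examined, within 500 kb on either side. Near Rpl29 7 of 19 tested genes were called higher (36.8%), near Rps18 7 of 40 (17.5%) and near Rps2 2 of 35 (5.71%), against 8.44% of all tested genes. Near Rps9 4 of 22 were called higher (18.2%) and 3 lower (13.6%), against 6.21% of all tested genes called lower. Near Rpl26 3 of 21 were called higher (14.3%). Near Rpl30, Rpl35a and Rpl39l 1 gene each was called higher, of 7, 10 and 6 (14.3%, 10% and 16.7%), and near Rpl35a 1 was called lower (10%). The median log2 fold change of the neighbours was 0.28 near Rpl30, 0.22 near Rpl29, 0.20 near Rps9, 0.061 near Rpl26, 0.023 near Rps2, -0.00057 near Rps18, -0.036 near Rpl39l, -0.098 near Rpl35a and -0.19 near Rpl21. For Rpl21 there were 5 tested neighbours, of which 1 was called higher (20%) and 2 lower (40%).

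Promoter sequences are given to show letters that many of these genes have near their start. A 300-base window around a RefSeq start (GRCm38.p6) was listed for 68 of the genes. A run of at least 8 C or T within 20 bases of a start was found in 32 of the 68 (47.1%), against 18.4% of all 27025 genes with a window and 19.5% of tested genes. The ETS-type letters CCGGAAG, searched on both strands, were found in 38.2% of the 68, against 9.93% of all genes and 20.4% of tested genes. TATAAA, searched likewise, was found in 11.8%, against 15.7% and 8.74%. For genes from each group of fold changes, 60 bases are shown, from 40 before to 20 after a start, 5′ to 3′ on the gene's strand, with the run in capitals. On GRCm38.p6 they lie at chr17:33955646-33955705 (- strand) for Rps18, chr16:33056442-33056501 (+ strand) for Rpl35a, chr7:45718031-45718090 (+ strand) for Rpl18 and chr4:86857348-86857407 (- strand) for Rps6. Those of Rps9, Rpl26 and Rpsa lie at chr7:3704001-3704060 (+ strand), chr11:68901526-68901585 (+ strand) and chr9:120127726-120127785 (+ strand).
Rps18: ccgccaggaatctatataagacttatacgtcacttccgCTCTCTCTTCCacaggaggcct
Rpl35a: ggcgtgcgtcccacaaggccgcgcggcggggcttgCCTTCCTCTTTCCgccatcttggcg
Rpl18: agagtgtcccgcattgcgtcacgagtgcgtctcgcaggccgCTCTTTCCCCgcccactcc
Rps6: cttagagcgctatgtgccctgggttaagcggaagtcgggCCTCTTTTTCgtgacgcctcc
Rps9: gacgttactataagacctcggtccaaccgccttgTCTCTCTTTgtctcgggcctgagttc
Rpl26: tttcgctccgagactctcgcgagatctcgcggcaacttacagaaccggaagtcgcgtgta
Rpsa: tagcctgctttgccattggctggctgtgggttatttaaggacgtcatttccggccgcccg
A run stood at the start of Rps18 (11 bases) and of the second listed start of Rpl35a (13 bases), both more than 2-fold higher, of Rpl18 (10 bases), of Rps6 (10 bases), which was not called, and of Rps9 (9 bases). In Rpl26 and Rpsa no such run was found near the start. The 300-base windows of Rpl26, Rpsa, Rps18 and Rps6 hold the ETS-type letters. Those of Rpl18, Rps9 and the second listed start of Rpl35a do not. Such matches describe letters in the window and not how a promoter acts.

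Other genes of ribosome making and translation were counted in 13 lists. Over their 325 tested genes 37 were called higher (11.4%) and 5 lower (1.54%), against 8.44% and 6.21% of all tested genes, and the median log2 fold change was 0.13. Ribosomal proteins that the naming rule misses were near the main body. Rack1, the scaffold on the head of the small subunit, had 814, 994 and 877 FPKM in KO, against 736, 818 and 679 FPKM in WT (log2 fold change 0.25, adjusted p = 0.174 in edgeR). Fau, which encodes a small subunit protein fused to a ubiquitin-like protein, had a log2 fold change of 0.028 (adjusted p = 0.91 in edgeR). Neither Rack1 nor Fau was called in edgeR, DESeq2 or limma-voom. Rack1 had an unadjusted p under 0.05 in edgeR and Fau did not.

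Factors that assemble ribosomes included genes called higher. Of 42 tested genes of the small subunit processome and 40S assembly 6 were called higher (14.3%, against 8.44% of all tested genes), with a median log2 fold change of 0.27. Nop58, a core protein of box C/D small nucleolar particles, had 15.3, 19.9 and 16.5 CPM in KO, against 10.0, 9.92 and 10.2 CPM in WT (log2 fold change 0.76, adjusted p = 0.00386 in edgeR). Nat10, which acetylates ribosomal RNA, was at 0.63 (adjusted p = 0.00545 in edgeR). Of 42 tested genes of 60S assembly 8 were called higher (19.0%), with a median of 0.20, among them Mrto4 (0.66), Gnl3 (0.72) and Nop2 (0.57). In the list of box H/ACA and modification factors 4 of 11 were called higher (36.4%), led by the pseudouridine synthase Dkc1 (0.78, adjusted p = 0.014 in edgeR). Polr1a, the largest subunit of RNA polymerase I, had 55.1, 50.7 and 47.8 CPM in KO, against 36.7, 32.9 and 34.7 CPM in WT (log2 fold change 0.54, adjusted p = 0.00563 in edgeR), and it and Nolc1 were the 2 genes called among 22 in that list (9.09%), a share near that of all tested genes.

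Translation factors and mitochondrial ribosomal proteins had medians above that of all tested genes, but apart from elongation the shares called higher were near or below the 8.44% of all tested genes. Of 12 elongation genes 3 were called higher (25%), with a median of 0.24. Eif5a, which helps stalled ribosomes make peptide bonds, had 889, 1020.0 and 883 CPM in KO, against 666, 646 and 635 CPM in WT (log2 fold change 0.50, adjusted p = 0.00644 in edgeR). Of 36 initiation genes 2 were called higher, Eif3b (0.35) and Eif2s2 (0.39), or 5.56%, with a median of 0.095. Of 21 other genes with a TOP motif 2 were called higher, Npm1 (0.42) and Impdh2 (0.32), or 9.52%, with a median of 0.028. Of the 78 mitochondrial ribosomal proteins 7 were called higher (8.97%), with a median of 0.13, led by Mrpl33 (0.76, adjusted p = 0.00253 in edgeR).

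Regulators were called in either direction, with 1 to 4 genes called in a list. Of all tested genes 8.44% were called higher and 6.21% lower. In the list of Myc and p53 checkpoint genes, Myc, a transcription factor that raises ribosome production, had 16.7, 14.3 and 13.8 CPM in KO, against 5.48, 5.27 and 8.26 CPM in WT. Its lowest KO library was above its highest WT library (log2 fold change 1.21, adjusted p = 0.00126 in edgeR). Phlda3, a p53 target, was also called higher (0.59), while Mdm4 (-0.50) and Mxi1 (-0.45), a Myc antagonist, were called lower. In that list 2 of 14 were thus called in each direction (14.3%). In the list of mTORC1 and S6 kinase control, Sesn1, a negative regulator, had 70.6, 82.0 and 62.7 CPM in KO, against 119.9, 109 and 93.1 CPM in WT (-0.60, adjusted p = 0.0113 in edgeR), and Ddit4, another one, was called higher (0.41, adjusted p = 0.0365 in edgeR), so that 1 of 29 was called in each direction (3.45%). Among the 15 tested ribosome rescue and quality control genes, Ascc1 (-0.77) and Gtpbp2 (-0.35) were called lower (13.3%) and 0 higher. Of the 17 tested chaperones and nascent chain factors 1 was called, Srp54a, which was higher (5.88%). Srp54a was at 2.13, 1.48 and 1.38 CPM in KO, against 0.404, 0.0505 and 0.318 CPM in WT. Reads of Srp54a may be shared with its near copies Srp54b and Srp54c.

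**Figure D5:**
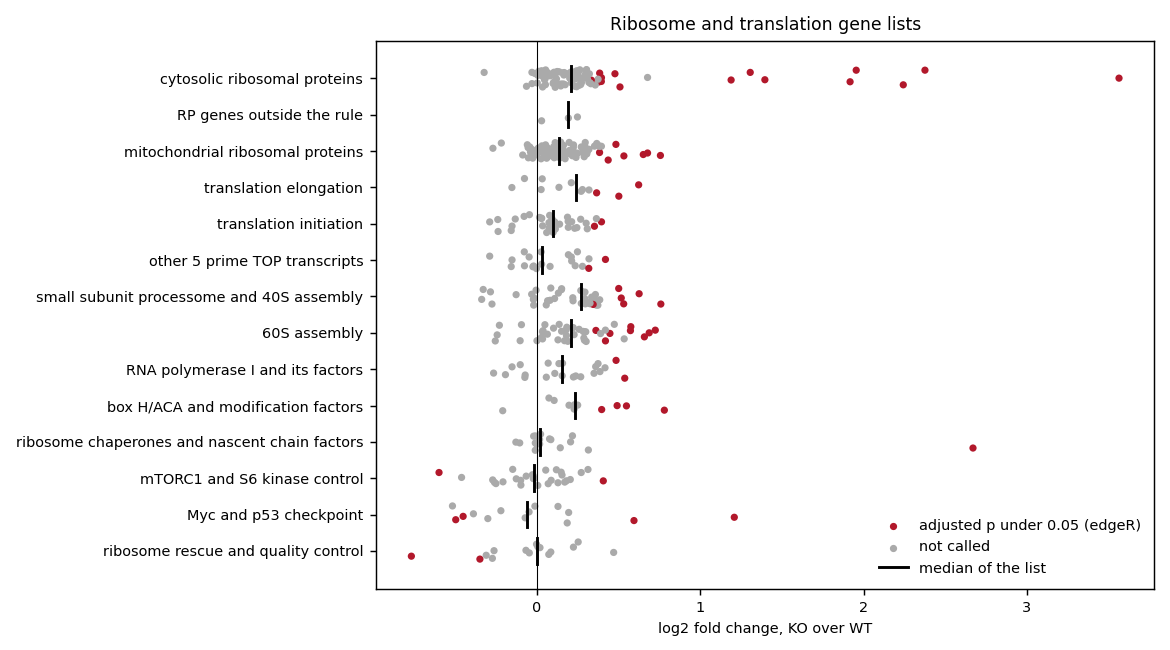
Log2 fold change of KO over WT (x axis) of each tested gene (points; red, adjusted p under 0.05) in the ribosomal protein set and 13 lists (rows), with the median of each list as a bar. Medians run from 0.27 in 40S assembly to -0.061 in Myc and p53 checkpoint genes, and 8 ribosomal protein genes and Srp54a and Myc lie beyond 1.

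The counts over these lists also moved with the libraries. Without KO replicate 2 and WT replicate 3, the 325 genes had a median of 0.039, with 50 called higher (15.4%) and 28 lower (8.62%), against 13.7% and 12.3% of all tested genes. Without WT replicate 1, 17 were called higher (5.23%) and 2 lower (0.615%), against 5.63% and 3.47%. Fibroblast and marrow stroma markers were higher in KO beside all of these results, as given above, and their part in them was not tested. Of the 6 markers of dividing cells, summed levels were 146 to 161 CPM in KO and 138 to 166 CPM in WT libraries.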

How the data were processed

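For 6 libraries and 16266 genes, gene-level read counts and FPKM (counts scaled by gene length and library total) were deposited by the authors. Per the labels' protocols, total RNA was extracted with TRIzol and the libraries kept strand information. The tools fastp, HISAT2 and HTSeq and the build mm10 are named without versions, per the submitters' processing notes. The strand setting of counting and the treatment of reads with several matches are not given. The deposited FPKM equalled the count over 1 length per gene within 1% in 99.99% of values of at least 10 counts. The deposited counts entered edgeR's quasi-likelihood F test after filterByExpr and TMM scaling, adjusted by Benjamini-Hochberg over 12219 genes (edgeR 4.0.16, R 4.3.3). The SE is the log2 fold change over the square root of F. Fold changes are KO over WT, and CPM uses whole column totals. Alternatives used DESeq2 1.42.0 and limma 3.58.1 (voom, and trend on log2(FPKM + 1) and log2(FPKM + 0.1)). Counts of 12219 genes for KO against WT were also simulated, each gene drawn independently, with 50 genes changed at each of 4 sizes. There edgeR found 10% of genes changed by 1.2 times, 44% at 1.5 times, 80% at 2 times and 94% at 4 times. Of its calls 4.2% were false. Library effects shared by many genes were not simulated, so these shares may differ in the real data. Pairs of libraries within a group differed far beyond counting noise (chi-square per degree of freedom 12.9 to 62.0), so none was treated as a duplicate.

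The genes and lists were chosen with earlier results of these data known, and so were the tests. Named ribosomal protein genes were all called ones, Rpl21, Rpl26 and Rps2, the 5 of highest mean FPKM per subunit and the 3 of largest fold change among those not called, the P proteins, Rpsa, 6 genes with roles outside the ribosome, and paralogs with the gene each resembles. From each other list up to 4 called genes of smallest adjusted p were taken, or the 1 of smallest p, and some are not reported here. Of pseudogene copies up to 3 per called gene were taken. Positions and promoters came from RefSeq (GRCm38.p6), matched by Entrez identifier for 16185 genes, and transcripts from GENCODE M21 (GRCm38), both of the build mm10.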

Additional observations from a re-analysis of the deposited data

How the results depend on the processing

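The count of 15 called ribosomal protein genes, in either direction, stayed within 1.5 times under DESeq2, limma-voom, other scalings, other filters, both FPKM pseudocounts, removal of the length trend and the addition of ribosomal proteins that the naming rule misses, Fau and Rack1 among them. With the length trend removed 10 were called higher and 1, Rps9, lower, beside 994 higher and 1352 lower of 12219 genes. Rpl22l1, Rpl10a, Rpl36, Rplp1 and Rpl39 were then not called. Leaving out 1 library gave 8 to 18 called genes, with 8 without WT replicate 1 and 9 without KO replicate 3, and medians of 0.13 to 0.30. Over all tested genes the count of 1790 became 1119 to 1741, with 1119 without KO replicate 1, 1149 without KO replicate 3 and 1138 without WT replicate 1, and the 42 called in the 13 other lists became 19 to 36. Among genes sharing at most 30% of their 32-base words 5 of 28 were called higher, and among those under 10% 1 of 7, Rpl39l. For comparison, 17.2% of the 87 and 8.44% of all tested genes were called higher. Of the genes with no shared 100-base coding word, a limit chosen after seeing the data, 1 of 9 was called. These smaller counts come from fewer genes. The median of 0.21 moved to 0.043 with the length trend removed and to 0.024 without KO replicate 2 and WT replicate 3. Leaving out both also gave 3186 called genes in all and 78 in the other lists, and Rpl5 was then called lower (-0.26). The cause was not tested. The summed share was 1.18 times as high in KO as in WT and 1.12 to 1.26 times with 1 library left out.

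With the replicate number as a block, 24 of 87 ribosomal protein genes were called, 72 of 325 in the other lists and 2526 of 12219 in all. Of the 24, 23 were higher and 1 lower in KO, beside 1362 higher and 1164 lower of all tested genes. The labels do not say what a shared number means. Deviations of libraries with the same number correlated at -0.098, 0.23 and 0.18, KO replicate 1 correlated best with WT replicate 3 (0.26), and the samples were not treated as pairs. Of 817 values of named genes under the alternatives, 731 kept side and direction, 33 lost and 24 gained a call, 28 changed sign without being called, and 1, that of Rpl5 above, changed sign and was called. Depth limits Rpl32l, with 20 to 68 counts per library, and Rpl39l, with 32 to 238, more than the other tested ribosomal protein genes.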
